A study of Homo sapiens with 4 samples.

Results

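The genes described here encode the proteins of the cytosolic ribosome. They were the protein-coding entries whose symbols follow the RPL and RPS naming of the large and small subunits, together with RPLP0, RPLP1, RPLP2 and RPSA. The rule found 77 genes, 31 of the small subunit and 46 of the large one, among 26348 genes listed, and all 77 passed the filter on low values that 13811 genes passed. FAU and RACK1, which also encode ribosomal proteins, carry other names and were outside the rule.

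RNA was sequenced from 293T cells, a human embryonic kidney line that carries the SV40 large T antigen, and from A549 cells, which derive from a non-small cell lung cancer. Both lines were either exposed to a magnetic field over 2 h or left without it as control, which made 4 groups of 3 libraries: 293T control, 293T exposed, A549 control and A549 exposed. No genotype and no agent but the field is named, and its strength is not given here. The labels do not tie the 3 libraries of a group to separate cultures, so p-values measure only how these libraries spread, which may be a technical spread.

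A ribosome consists of a small subunit, which decodes the mRNA, and a large subunit, which joins amino acids, and each ribosomal protein is present once per ribosome with the exception of the stalk proteins RPLP1 and RPLP2. The mRNAs of these proteins are among the most abundant of a growing cell. They carry a run of pyrimidines at the 5′ end, the TOP motif, through which mTORC1 and LARP1 adjust their translation and stability together. Unassembled ribosomal proteins are degraded, and free RPL5 and RPL11, with 5S rRNA, bind MDM2 and so connect ribosome assembly to p53.

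The start sites of 10 of the genes are printed from RefSeq (GRCh38.p14), because the pyrimidine run is the sequence feature that the family is known for. Each window runs from 10 bases before the annotated start to 20 bases after it on the coding strand, and capitals mark the longest run of at least 8 bases that are each C or T. The first 5 are the genes with the smallest adjusted p among the rises in exposed 293T, RPL39 and RPL28 rose in exposed A549, and the last 3 had the lowest log2 fold changes in 293T, all among the genes with a single start in the table. On chr22:39319604-39319633 (minus strand) lies RPL3, on chr3:39406710-39406739 (plus) RPSA, on chr11:75399508-75399537 (plus) RPS3, on chr11:8682782-8682811 (plus) RPL27A and on chr5:150449720-150449749 (minus) RPS14. The windows of RPL39 and RPL28 are chrX:119791611-119791640 (minus) and chr19:55385922-55385951 (plus). Those of RPL10A, RPS28 and RPS26 are chr6:35468391-35468420, chr19:8321486-8321515 and chr12:56041908-56041937, all on the plus strand.
RPL3: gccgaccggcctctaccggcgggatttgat
RPSA: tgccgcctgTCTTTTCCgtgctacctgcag
RPS3: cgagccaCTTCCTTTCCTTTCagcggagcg
RPL27A: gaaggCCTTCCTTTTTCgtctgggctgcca
RPS14: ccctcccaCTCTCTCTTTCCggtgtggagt
RPL39: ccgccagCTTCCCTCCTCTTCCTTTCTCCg
RPL28: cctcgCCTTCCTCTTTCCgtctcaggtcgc
RPL10A: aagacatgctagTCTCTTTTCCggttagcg
RPS28: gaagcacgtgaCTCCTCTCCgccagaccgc
RPS26: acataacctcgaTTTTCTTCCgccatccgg

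Of these 10 windows, 9 hold such a run, of 8 bases in RPSA to 22 in RPL39, and the run lies across the start or within 3 bases after it. Start windows were matched for 62 of the 77 genes, with 77 starts in the RefSeq promoter table. A run of at least 8 C or T on the coding strand was present in the window of 56 of these 77 starts (72.7%), against 12.7% of all 35116 starts in the table. On the opposite strand, a run of the same length was present at 5.19% of the starts of the ribosomal protein genes and at 10.7% of all starts. Over the 300 bases from 250 before to 50 after the start, searched on both strands, the ETS core TTCCGG was found at 51.9% of the ribosomal protein starts and 17.2% of all starts. AAGATGG, a YY1-type sequence, was found at 10.4% against 5.84%, and TATAAA at 6.49% against 11.5%. TTCCGG can overlap a pyrimidine run in its first 4 bases. Of the 53 genes with a run at any listed start, 21 rose in exposed 293T (13.7% of all genes tested rose), with a median log2 fold change of 0.075, and of the 9 without one, 3 rose, with a median of 0.069. The difference between these sets was not tested.

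The level of a gene is given in FPKM, counted fragments divided by the length of the gene model and by the total of the library. The libraries held 37173110 to 38884704 fragments counted to genes, recovered from the deposited values. The labels were checked on marker genes: 7 markers of A549 lay at 27.9 FPKM or above in every A549 library and at 5.70 or below in every 293T library. Of 6 markers of 293T, 5 were higher in every 293T library than in any A549 library, and SOX11 was at 0.0172 FPKM or less throughout. HSPA1A, an inducible heat shock gene, averaged 9.29 FPKM in 293T control and 112 in 293T exposed, and 49.9 and 584 in A549.

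In the control libraries the 77 genes took 14.7% to 14.9% of the summed FPKM of 293T and 11.7% to 12.01% of that of A549. Their levels ran from 1.41 to 2745 FPKM in 293T control, with a median of 660, and from 0.858 to 2067 in A549 control, with a median of 485. In 293T control 17 genes exceeded 1000 FPKM and 8 lay under 100, and in A549 control 15 and 8 did. The order of the genes was much the same in both lines (r = 0.96 and rho = 0.90 across the 77 genes, which are not independent replicates and share their gene models). RPS2, a small subunit protein at the mRNA entry site, headed it in both lines, with 2804, 2710 and 2720 FPKM in 293T control and 2051, 2063 and 2088 in A549 control.

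At the low end stood genes whose annotation differs from that of their neighbours in the order. RPL36A was at 1.07, 1.67 and 1.51 FPKM in 293T control and at 0.439, 1.36 and 0.779 in A549 control, with as few as 12 fragments in a library. RPL17 averaged 11.7 FPKM and RPS10 14.5 FPKM in 293T control. Each of these 3 genes shares its span with an annotated readthrough gene (RPL36A-HNRNPH2, RPL17-C18orf32 and RPS10-NUDT3), and a fragment from a shared exon cannot be assigned to one of the pair. The sources used here do not say how ambiguous fragments were treated, and these levels are uncertain. RPS29, at 22.4 ± 0.0837 FPKM in 293T control, has a gene model of 7472 bases in the deposited values, against 677 bases for its principal GENCODE transcript. Divided by the latter length, its level would be 247 FPKM. RPL15 has a model of 6452 bases and a principal transcript of 1063 bases. RPL37 (7573 bases), RPL14 (7136) and RPL28 (5585) have long models and long principal transcripts alike. Across the 77 genes the level fell as the length of the model grew (r = -0.50, rho = -0.67 in 293T control), a description of values that contain that length. The model was over 2 times the principal transcript in 13 genes. Other sequences also touch the counts: 29 genes hold at least 1 snoRNA gene in their span, 17 overlap another protein-coding gene, and each has between 4 and 137 RefSeq pseudogenes named after it (median 17), with which fragments may have been exchanged.

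The first comparison asked how the genes differed between exposed and control 293T cells. In exposed 293T, 29 of the 77 genes rose and 1 fell, by small amounts: the median log2 fold change was 0.074, about 5% in level, and it ran from -0.090 to 0.15. With quantile normalization, this median was -0.0087 and the split was 7 higher and 10 lower, so the direction holds on the deposited scale and not on that one. The number that rose was 11 without 293T exposed replicate 2, 12 and 17 without 293T control replicates 3 and 2, 14 without the filter on low values and 13 without an intensity trend in the variance. A call means an adjusted p under 0.05 in limma over all 13811 genes. Of all genes tested, 13.7% were called higher and 24.2% lower, with a median of -0.031. The 3 exposed libraries all lay above the 3 control libraries in 45 of the 77 genes (19.1% of all genes tested) and all below in 1 (30.8% of all genes tested).

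**Figure D1:**
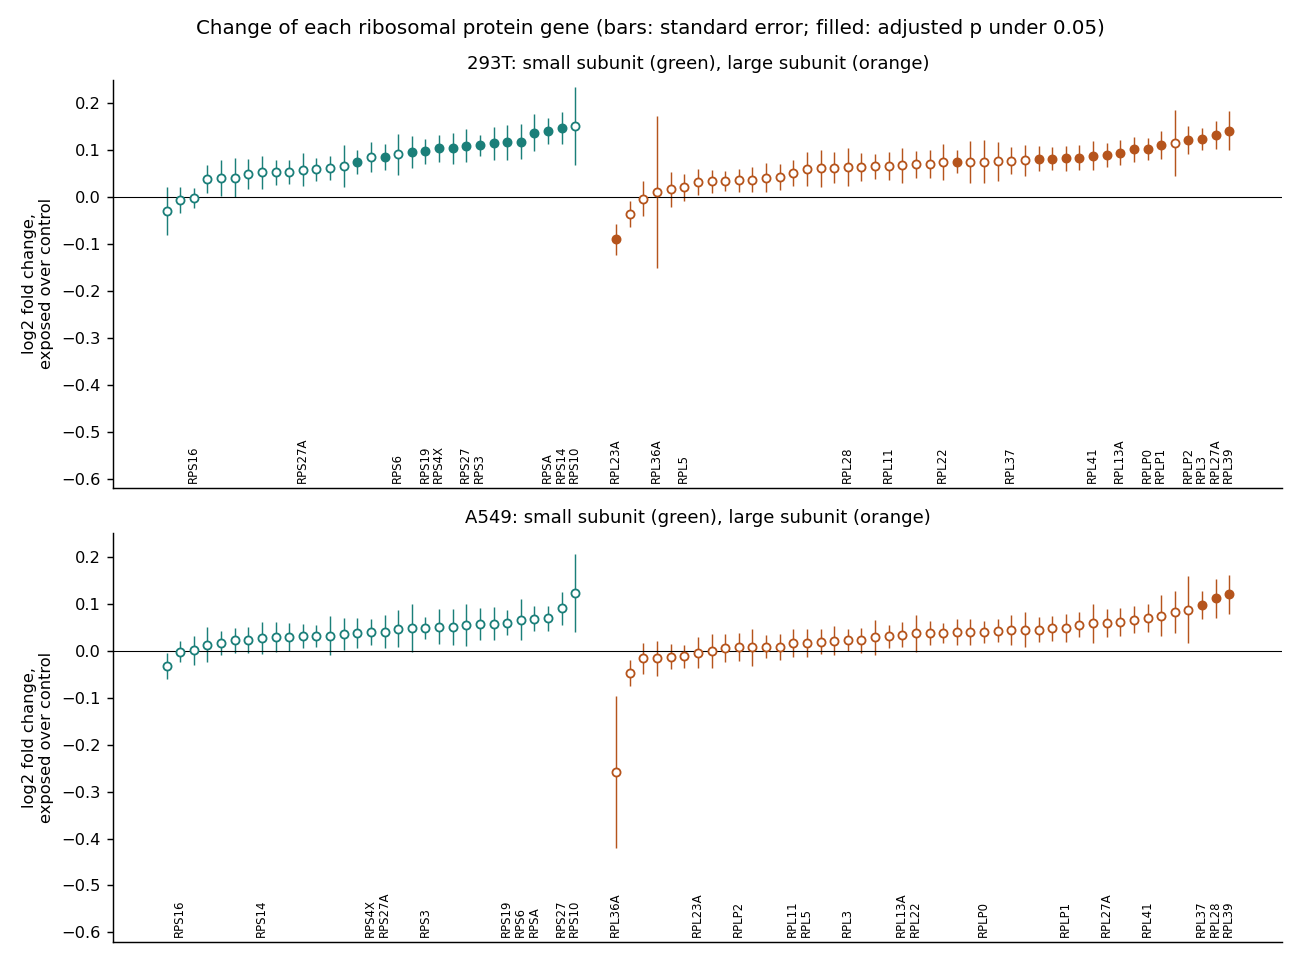
Log2 fold change of each of the 77 genes, exposed over control, in 293T (top) and A549 (bottom), with the standard error from limma on log2(FPKM + 1); green marks the small and orange the large subunit, filled symbols passed an adjusted p of 0.05, and some of the genes named in the text carry their names. In 293T 71 genes lie above 0 and 30 are filled, and in A549 67 lie above 0 and 3 are filled; under quantile normalization the median of either line lies below 0.

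Both subunits took part on the deposited scale. Of the 31 small subunit genes 14 rose and none fell, with a median of 0.084, and of the 46 large subunit genes 15 rose and 1 fell, with a median of 0.070. With quantile normalization these medians were 0.0035 and -0.010. The difference between the subunits was not tested. The small subunit took 6.43% to 6.51% of the summed FPKM in the 293T control libraries and 6.82% to 6.98% in the exposed ones. The large subunit took 8.28% to 8.38% and 8.66% to 8.85%.

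RPSA, the laminin receptor precursor and a small subunit protein needed for 40S maturation, had the largest rise among the genes with an adjusted p under 0.005. Its level was 1428, 1407 and 1388 FPKM in 293T control and 1534, 1571 and 1550 in 293T exposed. Every exposed library was above every control library, and the log2 fold change was 0.14 ± 0.027 (SE), with an adjusted p of 0.0018 in limma. RPL3, which reaches towards the peptidyl transferase centre, stood at 1164, 1168 and 1154 FPKM in control and at 1261, 1280 and 1259 in exposed 293T. The groups did not overlap, and the log2 fold change was 0.12 ± 0.024 (SE; adjusted p 0.0017, limma). Its start window holds no pyrimidine run of 8 bases.

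RPS3, at the mRNA entry channel, was at 376, 385 and 373 FPKM in control and 413, 408 and 403 in exposed 293T, a log2 fold change of 0.11 (adjusted p 0.0028, limma). RPL27A was at 162, 168 and 162 FPKM and then at 175, 183 and 181 (0.13, adjusted p 0.0046, limma). RPS14, whose loss of 1 copy underlies the anaemia of the 5q- syndrome, was at 378, 395 and 381 FPKM and then at 422, 437 and 418 (0.15, adjusted p 0.0055, limma). For all 3 the exposed libraries lay wholly above the control libraries.

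The stalk proteins, which recruit the GTPases of elongation, rose together in 293T on the deposited scale. RPLP0, the base of the stalk, was at 1174, 1158 and 1165 FPKM in control and 1231, 1283 and 1241 in exposed cells. Its log2 fold change was 0.10 (adjusted p 0.0055, limma), and -0.017 with quantile normalization. RPLP1 averaged 660.5 ± 9.66 FPKM (SD, n = 3) and 713 ± 20.95, and RPLP2 829 ± 13.1 and 902 ± 36.1. Their log2 fold changes were 0.11 and 0.12, with adjusted p of 0.012 and 0.0075 in limma. No library of an exposed group fell among the controls in any of the 3.

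RPL39, a short protein lining the exit tunnel, and the gene with the longest pyrimidine run in the windows above, was at 2193, 2210 and 2164 FPKM in 293T control and 2286, 2532 and 2430 in 293T exposed. Its log2 fold change was 0.14 ± 0.041 (SE; adjusted p 0.018, limma), with no overlap between the groups. RPS19, which is mutated in Diamond-Blackfan anaemia, rose by 0.098 (adjusted p 0.013, limma), from 204 ± 1.68 to 218 ± 5.71 FPKM. RPL13A, a large subunit protein also known from translational silencing in the interferon response, rose by 0.094 (adjusted p 0.016, limma). RPS4X, the X-linked copy of a small subunit gene, rose by 0.10 (adjusted p 0.012, limma). RPL13A and RPS4X changed sign with quantile normalization, to -0.0074 and -0.016. RPL41, the smallest ribosomal protein, rose by 0.088 (adjusted p 0.039, limma). RPS3A, RPS15A, RPS18, RPS21, RPS27, RPS2, RPL7A, RPL10, RPL19, RPL26, RPL31, RPL35 and RPL37A were also among the 29, with log2 fold changes from 0.074 (RPS2) to 0.14 (RPS3A).

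RPL23A, which sits at the exit of the tunnel where signal recognition particle binds, was the gene that fell in 293T. Its level was 961, 925 and 949 FPKM in control and 921, 845 and 899 in exposed cells, so that every exposed library lay below the controls. The log2 fold change was -0.090 ± 0.033 (SE), with an adjusted p of 0.047 in limma that became 0.12 without the filter on low values and 0.15 without 293T control replicate 1. The gene overlaps TLCD1 and holds 4 snoRNA genes. RPS16 and RPS26 were among the genes with changes closest to 0. RPS16 was at 666, 653 and 657 FPKM in control and 668, 657 and 649 in exposed 293T, a log2 fold change of -0.0015. Of the genes with functions outside the ribosome, RPL5 (0.021), RPL11 (0.067), RPS27A, which is made as a fusion to ubiquitin (0.058), RPL22 (0.074) and RPS6, the target of the S6 kinases (0.091), did not pass the test in 293T.

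**Figure D2:**
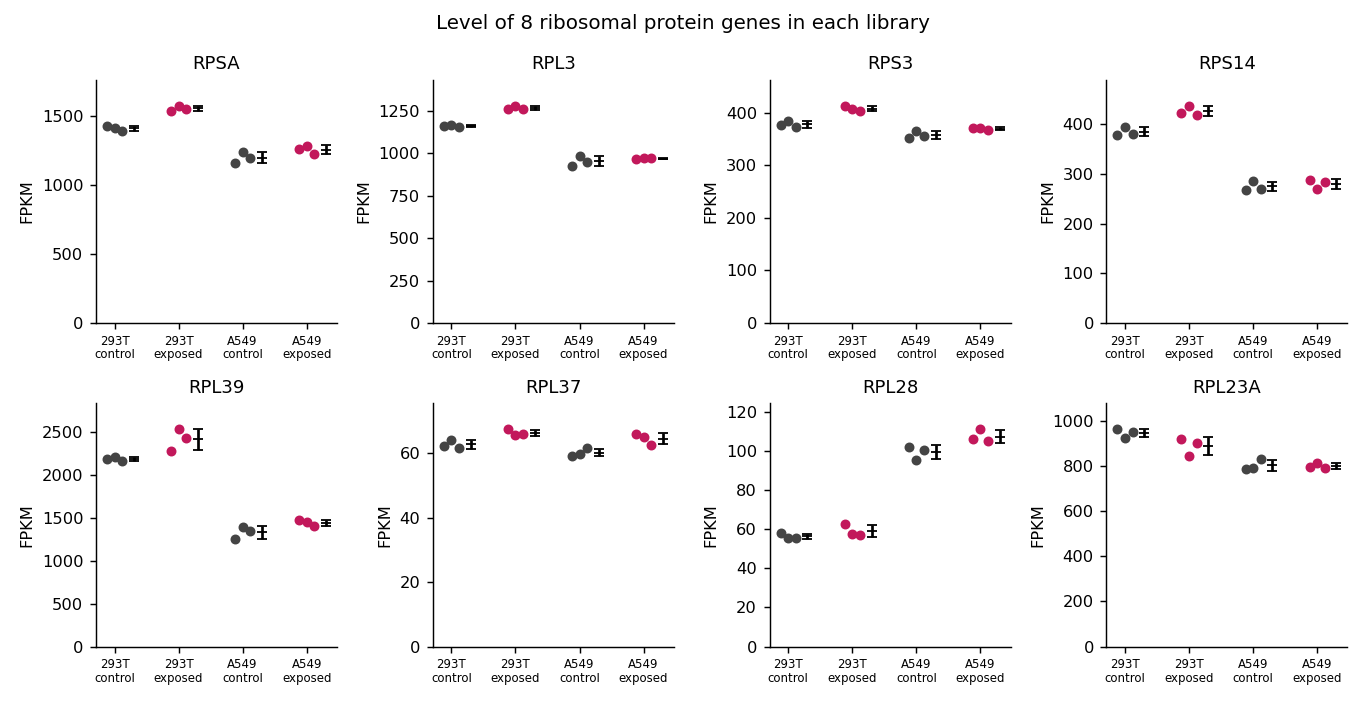
FPKM (axis from 0) of 8 genes in each library, with controls in grey, exposed libraries in magenta, and the mean and SD (n = 3) beside each group. RPSA, RPL3, RPS3 and RPS14 in 293T, and RPL39, RPL37 and RPL28 in A549, have exposed libraries wholly above the controls, and the distance between the lines exceeds the distance between exposed and control for 6 of the genes, RPL37 and RPS3 being the exceptions.

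The same comparison in A549 gave fewer calls. In exposed A549, 3 of the 77 genes rose and none fell, all 3 of the large subunit: RPL37, RPL39 and RPL28. The median log2 fold change was 0.038 on the deposited scale, -0.0016 when the FPKM sum was set without mitochondrially encoded genes, and -0.057 with quantile normalization, and it ran from -0.26 (RPL36A) to 0.12 (RPS10). Of all genes tested 13.3% were called higher and 26.9% lower, with a median of -0.037. The number that rose was 1 without the filter, without the trend or with each line fitted alone, and 6 with limma-voom on recovered counts. At an unadjusted p under 0.05 there were 9 of the 77 genes (11.7%), against 47.8% of all genes tested. The 3 exposed libraries lay above the 3 controls in 9 of the 77 genes (17.1% of all genes tested), 8 of them of the large subunit, and below in none (32.6%). The small subunit had a median of 0.040 and no call in 31, and the large subunit a median of 0.037 and 3 calls in 46.

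RPL37 was at 59.3, 59.9 and 61.5 FPKM in A549 control and 66.0, 65.0 and 62.6 in A549 exposed. All exposed libraries lay above the controls, and the change was 0.098 ± 0.029 on the log2 scale (SE; adjusted p 0.019, limma). RPL39 was at 1253, 1397 and 1343 FPKM and then at 1478, 1453 and 1408, a change of 0.12 ± 0.041 (SE; adjusted p 0.035, limma). It was the gene that rose in both lines. RPL28 was at 102, 95.3 and 101 FPKM and then at 106, 111 and 105 (0.11 ± 0.041 SE; adjusted p 0.047, limma). The 2 groups came within a few FPKM of each other and did not overlap. None of the 3 passed with quantile normalization (adjusted p 0.055, 0.79 and 0.19 in limma) or when mitochondrially encoded genes were left out of the sum (adjusted p 0.12, 0.11 and 0.18). Without A549 exposed replicate 1 no gene was called, and without A549 exposed replicate 3 there were 7. Without A549 control replicate 1 there were 1 higher and 1 lower, and without A549 control replicate 2 there were 5, all higher. RPSA (0.068) and RPS27 (0.090) were among the genes just outside the threshold, with adjusted p of 0.062 and 0.063 in limma. RPL36A was at 0.648, 0.417 and 0.511 FPKM in A549 exposed, with 2 of the 3 values inside the range of the controls, and its log2 fold change of -0.26 had an SE of 0.16.

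A test of the difference between the lines, the exposure effect in A549 minus that in 293T, called none of the 77 genes in limma or in limma-voom on recovered counts. Of all genes tested, 5.51% were called higher and 7.03% lower. The median difference was -0.034, 66 of the 77 genes lay below 0 (85.7%, against 52.3% of all genes tested), and 3 had an unadjusted p under 0.05 (3.90%, against 27.2% of all genes tested). These were RPL3 (-0.10 ± 0.033 SE, adjusted p 0.066 in limma), RPLP2 (-0.11 ± 0.042 SE, adjusted p 0.10) and RPS14 (-0.12 ± 0.048 SE, adjusted p 0.13). The larger number of calls in 293T is therefore not shown to be a difference between the lines. With quantile normalization 8 genes were called lower in A549, with the sum set without mitochondrially encoded genes 2, and with TPM 1.

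The share of the library gives the same quantities without a test. The 77 genes took 14.7%, 14.9% and 14.8% of the summed FPKM in 293T control and 15.5%, 15.8% and 15.6% in 293T exposed, a ratio of 1.06. In A549 they took 11.7%, 12.01% and 11.9% in control and 12.3%, 12.3% and 12.1% in exposed libraries, a ratio of 1.03. Exposed libraries were above controls in both lines, in A549 by a narrow margin. As a share of recovered fragments the ratios were 1.05 in 293T and 1.02 in A549, where the groups then overlapped, at 5.101% to 5.348% in control and 5.290% to 5.399% in exposed libraries. In bulk RNA, fewer cells of a kind and less RNA per cell cannot be told apart, and a share can move because other genes did. Transcripts of the 13 protein-coding genes of mitochondrial DNA moved the other way: they took 14.0% to 14.9% of the summed FPKM in 293T control and 12.6% to 12.8% in exposed, and 21.3% to 22.9% and 19.4% to 20.2% in A549. With these genes left out of the sum, the ribosomal protein genes took 17.2% to 17.3% in 293T control and 17.7% to 18.1% in exposed. In A549 they then took 14.9% to 15.6% in control and 15.1% to 15.3% in exposed, and the groups overlapped.

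**Figure D3:**
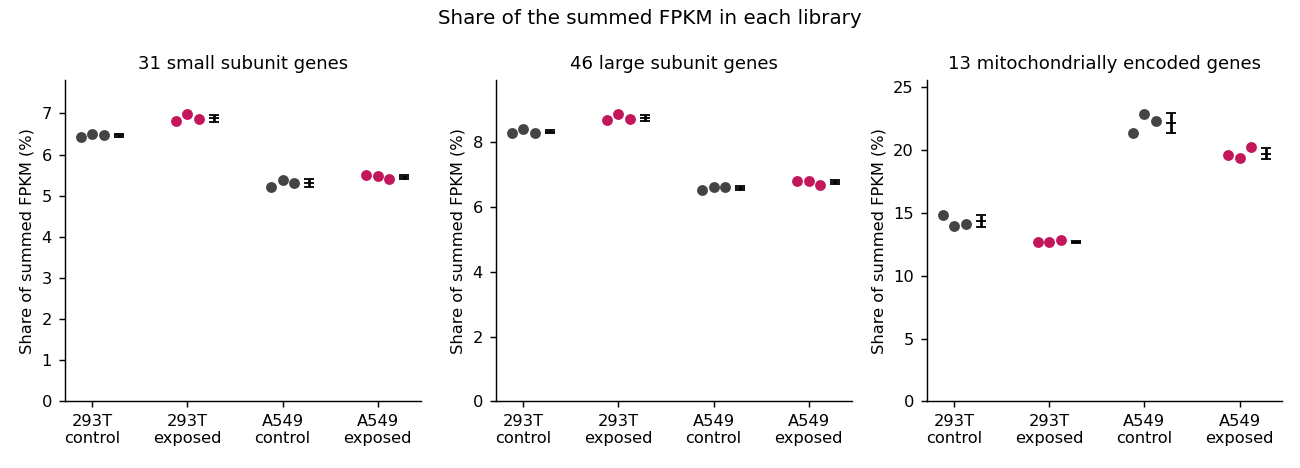
Share of the summed FPKM (%, axis from 0) taken in each library by the 31 small subunit genes, the 46 large subunit genes and the 13 mitochondrially encoded genes, with the mean and SD (n = 3). The ribosomal protein genes of either subunit take 1.03 to 1.06 times the control share in the exposed groups, and the mitochondrially encoded genes 0.89 times; with the mitochondrially encoded genes out of the sum, the A549 ratio of all 77 genes is 0.996.

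The direction for the family depended on the scale in A549 and, under quantile normalization, in 293T. Centring each library on its median gave 23 higher and 0 lower in A549 and 32 and 0 in 293T. TPM gave 7 and 0, and 36 and 0. Quantile normalization gave 0 and 25 in A549. With the sum set without mitochondrially encoded genes there were 0 higher and 2 lower in A549 and 18 and 1 in 293T. The share of all genes called under each of these scalings is not given here, so these counts alone do not set the family apart from other genes. Centring and the changed sum multiply each library by a constant, and they moved the median of all genes too, by 0.055 and -0.029 in A549 and by 0.027 and -0.016 in 293T. Relative to the median of all genes tested, the median of the 77 genes in A549 was higher by 0.075 on the deposited scale, 0.075 with centring, 0.064 with the changed sum and 0.084 with TPM, and stood at -0.052 with quantile normalization. In 293T these values were 0.11, 0.11, 0.099, 0.11 and -0.0062.

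**Figure D4:**
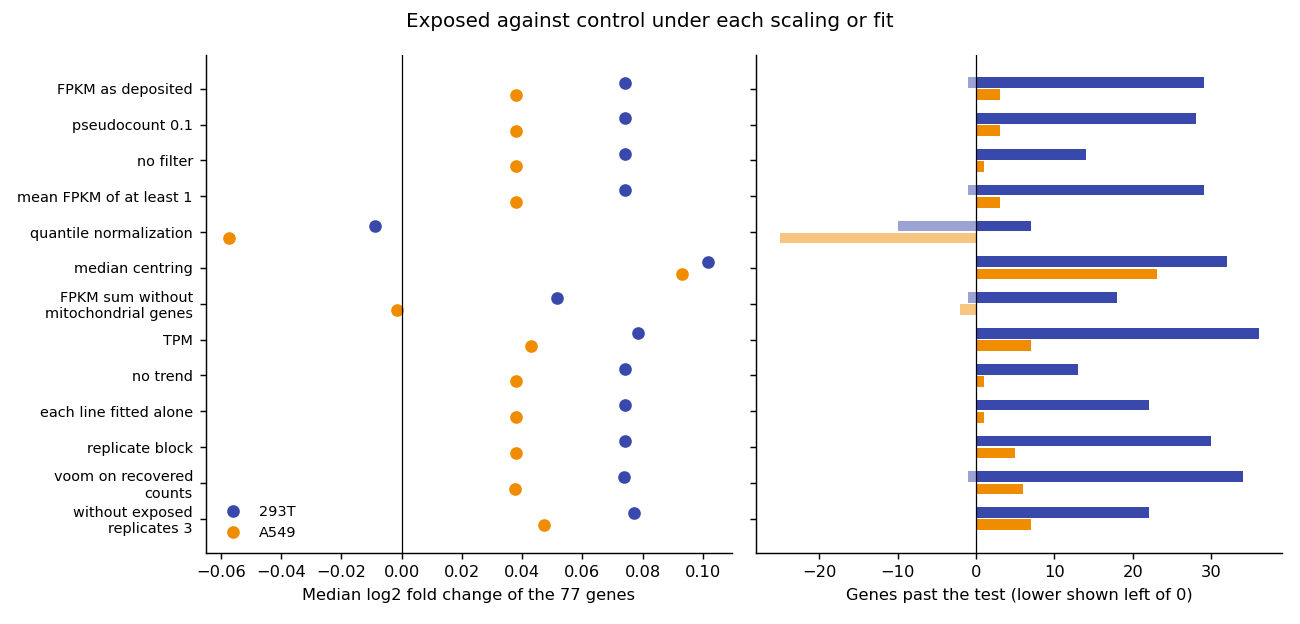
Median log2 fold change of the 77 genes (left) and number of genes called higher (right of 0) or lower (left of 0, pale), exposed against control, under each scaling or fit, in 293T (blue) and A549 (orange). The medians lie above 0 except with quantile normalization in both lines (-0.0087 and -0.057) and, in A549, with the sum set without mitochondrially encoded genes (-0.0016).

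Between the control groups of the lines the differences were far larger than those with the field. Of the 77 genes 19 were higher and 51 lower in A549 control than in 293T control, with a median log2 fold change of -0.19. Of all genes tested 32.4% were higher and 55.9% lower, with a median of -0.25. The small subunit had 9 higher and 20 lower, and the large subunit 10 and 31, with medians of -0.15 and -0.21. This comparison uses the control libraries that the exposure comparisons use as well.

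RPS16, whose tail reaches the decoding site, was at 666, 653 and 657 FPKM in 293T control and at 1365, 1392 and 1399 in A549 control, 2.10 times as high (log2 fold change 1.07, adjusted p 4.9e-14 in limma). RPS19 was at 206, 202 and 204 FPKM in 293T and at 412, 411 and 419 in A549 (1.02). RPL13A was at 769, 767 and 761 FPKM in 293T and at 1424, 1412 and 1421 in A549 (0.89). RPL28 (0.81) followed, and the stalk genes RPLP0 (0.39), RPLP1 (0.35) and RPLP2 (0.23) were higher in A549 too. In none of these genes did the libraries of the lines overlap.

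In the other direction, RPL5, which carries 5S rRNA into the large subunit, was at 1271, 1313 and 1298 FPKM in 293T control and at 472, 509 and 495 in A549 control, 2.63 times as high in 293T (-1.39, adjusted p 7.1e-14 in limma). Its partner RPL11 was lower in A549 by a smaller amount (-0.37). RPS10, which ZNF598 ubiquitylates on stalled ribosomes, was at 13.5, 14.5 and 15.4 FPKM in 293T and at 4.93, 5.82 and 5.50 in A549 (-1.27), with the uncertainty on its counting named above. RPL29 (-1.14), RPL9 (-1.13) and RPL36 (-1.13) were next, RPL29 at 854 ± 18.1 FPKM (SD, n = 3) in 293T and 388 ± 4.84 in A549. RPS27, RPL22 and RPS27A, with log2 fold changes of -0.025, -0.015 and 0.033, did not pass the test.

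The genes lie on 21 chromosomes, and their differences between the lines went only in part with those of other genes nearby, a description made after the values were seen. Across the 77 genes, the log2 fold change correlated with the median over the other tested genes within 2 Mb (r = 0.48, rho = 0.46; all points come from the same 6 libraries, and neighbouring genes share windows). Chromosome 19 holds 12 of the genes. The 4 that start below 20 Mb, RPL36 and RPS28 among them, were all lower in A549, with a median of -0.85, and 388 other genes tested there had a median of -0.56. Of the 8 that start above 39 Mb, RPS16, RPS19, RPL13A and RPL28 were among those higher and RPL18 and RPS9 were lower, with a median of 0.67 over the 8, and 370 other genes there had a median of -0.030. On chromosome 3 all 7 genes were lower in A549 (median -0.81), and 691 other genes had a median of -0.46.

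**Figure D5:**
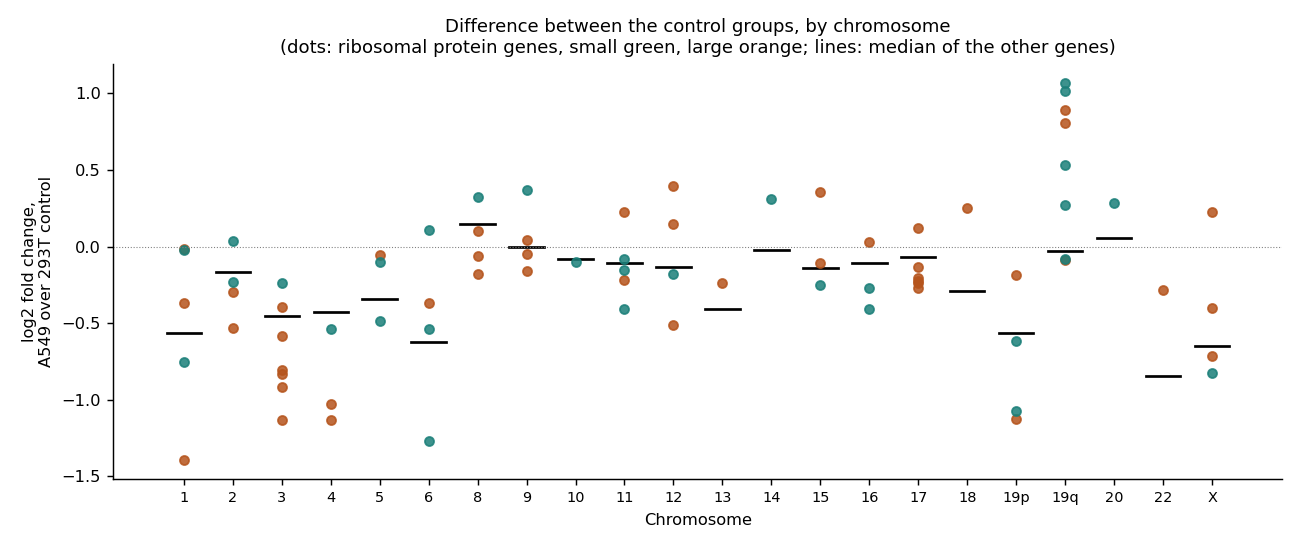
Log2 fold change of each gene, A549 control over 293T control, by chromosome, with the small subunit in green, the large in orange, and a line at the median of the other genes tested there; 19p and 19q hold the genes that start below 20 Mb and above 39 Mb. The 19q genes reach 1.07, the 19p genes all lie below 0 and reach -1.13, and all 7 genes of chromosome 3 lie below 0.

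The genes around the family were described from lists of ribosome-related genes. Of the ribosomal protein genes outside the naming rule, RACK1, a scaffold on the small subunit, rose by 0.078 in 293T (adjusted p 0.015, limma). FAU, which encodes a small subunit protein fused to a ubiquitin-like one, had log2 fold changes of 0.070 in 293T and 0.0082 in A549 and did not pass the test. Of 6 paralogs that passed the filter, RPL22L1 rose in both lines (0.13 in A549 and 0.18 in 293T). RPL26L1 rose in A549 (0.20), RPS27L, a p53 target, in 293T (0.15), and RPL7L1 (-0.21) and RPL36AL (-0.12) fell in 293T. RPS27L differed most between the lines, at 4.64 FPKM in 293T control and 28.1 in A549 control.

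Of 22 other genes with TOP mRNAs, 4 rose and 2 fell in A549, and 7 rose and 1 fell in 293T, with medians of 0.025 and 0.046. The shares over all genes tested were 13.3% higher and 26.9% lower in A549, and 13.7% and 24.2% in 293T. With quantile normalization, 1 rose and 7 fell in A549 and 3 rose and 4 fell in 293T, so their direction follows the scale as well. TPT1, which encodes the translationally controlled tumour protein, rose by 0.18 in A549 and 0.23 in 293T. EIF4A2, a helicase of initiation, rose by 0.34 and 0.50, and EEF1G, a subunit of the elongation factor 1 complex, by 0.088 and 0.11. PABPC1, the cytoplasmic poly(A) binding protein, rose by 0.099 in A549, and EEF1A1 by 0.11 in 293T. Exposed means of both genes were higher in the other line too, where their test results are not given here. PABPC1 averaged 269 FPKM in 293T control and 290 in 293T exposed, and EEF1A1 1764 and 1837 in A549. Their differences between the lines did not pass the test (adjusted p 0.89 and 0.36, limma). Among 13 genes that regulate TOP mRNAs, 3 rose and 4 fell in A549 and 3 rose and 3 fell in 293T, to be set against the same shares of all genes. RPTOR, the defining subunit of mTORC1, fell by 0.48 in A549 and by 0.28 in 293T, and MTOR fell by 0.17 in 293T. LARP4 rose by 0.58 and EIF4EBP2 by 0.14 in A549, and EIF4EBP1 by 0.26 and TIAL1 by 0.22 in 293T. A gene given for 1 line had one of the smallest adjusted p there. It may have passed the test in the other line too, where its adjusted p is not given here. From control to exposed, LARP4 averaged 17.8 and 21.7 FPKM and EIF4EBP2 34.8 and 36.1 in 293T. In A549, MTOR averaged 11.5 and 10.6 and TIAL1 18.8 and 21.1, and EIF4EBP1 went the other way, from 91.3 to 82.6.

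Of 48 ribosome biogenesis factors, 3 rose and 22 fell in 293T, where 13.7% of all genes tested rose and 24.2% fell. In A549 12 rose and 15 fell, where 13.3% of all genes rose and 26.9% fell. The medians were -0.13 and -0.047, against -0.031 and -0.037 over all genes. Over the scalings tried, 18 to 29 fell and 3 to 4 rose in 293T, and with median centring 13 rose and 8 fell in A549. BOP1 (-0.34) and PES1 (-0.30), partners in a complex of large subunit maturation, and NOB1 (-0.29), the nuclease that finishes 18S rRNA, fell in 293T. RPF2, which brings the 5S particle into the pre-60S subunit, rose in A549 (0.45). Exposed means of these genes moved the same way in the other line. Being named for 1 line does not mean that a gene failed the test in the other, where its result is not given here. From A549 control to A549 exposed, BOP1 averaged 54.97 and 46.88 FPKM, PES1 39.83 and 34.96 and NOB1 49.05 and 43.08. RPF2 averaged 25.56 FPKM in 293T control and 31.66 in 293T exposed. Their differences between the lines did not pass the test (adjusted p 0.22, 0.36, 0.40 and 0.27, limma). Of 17 genes of RNA polymerase I and 5S transcription, 3 rose and 3 fell in A549 and 2 rose and 3 fell in 293T. Of 19 chaperones and importins of ribosomal proteins, 3 rose and 5 fell in A549 and 4 rose and 4 fell in 293T, with HSPA8, a constitutive Hsp70, at 0.51 and 0.52 and IPO4 at -0.30 and -0.35. Of 16 ubiquitin ligases and rescue factors, none rose and 4 fell in A549, and 1 rose and 3 fell in 293T; with median centring, 3 rose and 3 fell in A549, and with quantile normalization 2 rose and 4 fell. ZNF598, which marks collided ribosomes, fell by 0.18 and 0.15, and ABCE1, which recycles ribosomes, by 0.36 and 0.33.

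The ribosomal proteins of the mitochondrion form a separate list. Of 77 that were tested, 6 rose and 17 fell in A549, and 3 rose and 17 fell in 293T, with medians of -0.020 and -0.085. Of all genes tested, 13.3% rose and 26.9% fell in A549, and 13.7% rose and 24.2% fell in 293T. With median centring, 14 rose and 8 fell in A549, and with the sum set without mitochondrially encoded genes 30 fell in 293T. MRPL18 rose by 0.73 and MRPS6 by 0.52 in A549, and MRPS2 fell by 0.36 in A549 and by 0.34 in 293T. Exposed means of the first 2 were higher in 293T too: MRPL18 averaged 116 FPKM in control and 162 in exposed, and MRPS6 27.4 and 32.6. Their test results in 293T are not given here, and these genes may have passed there as well. The difference between the lines passed the test for MRPS6 and not for MRPL18 (adjusted p 0.033 and 0.19, limma). Of the 13 mitochondrially encoded genes, none rose and 6 fell in A549, and none rose and 7 fell in 293T, against 0 and 2, and 1 and 3, with quantile normalization. ND1, a subunit of complex I, fell by 0.58 and 0.52.

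Over the 12 libraries, the non-member genes whose log2 level was most like the mean of the 77 (Pearson r, genes with a mean of at least 1 FPKM) were ATP5F1B (r = 0.996), SSR4, CEPT1, ZNF740, ZNF594, MED8, RLF and EEF1G (r = 0.990). The likeness is a description over libraries that fall into the same 4 groups. ATP5F1B averaged 600.4 FPKM in 293T control, 643 in 293T exposed, 469 in A549 control and 488 in A549 exposed.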

How the data were processed

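RNA-seq of 12 libraries (4 groups of 3) was used. Per the labels' protocols, RNA was extracted with TRIzol, treated with DNase, selected on oligo(dT) beads and sequenced in pairs. Per the submitters' processing notes, fastp, HISAT2, HTSeq and GRCh38 were used; versions and the strand setting are not stated here. Deposited were FPKM values computed by the authors. Fragment counts and gene model lengths were recovered from them: 100% of genes came out whole within 0.01.

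The test was limma 3.58.1 (R 4.3.3) on log2(FPKM + 1), with an intensity trend, 1 mean per group, all 12 libraries and 8 residual degrees of freedom, over 13811 genes at 0.5 FPKM or more in at least 3 libraries, with Benjamini-Hochberg adjustment and a threshold of 0.05. Fold changes are on that scale and understate those of low genes. The fit was tested on simulated data. Lists were described without a test. Positions came from RefSeq (GRCh38.p14), matched by gene ID for all 77 genes, and transcript lengths from GENCODE, matched by gene symbol. Pseudogenes and readthrough genes were found by symbol in RefSeq. Genes were named if they passed the threshold (up to 12 per direction), had the 5 highest or lowest fold changes or control levels, or held a listed role. Other called genes of 293T are named beside them, chosen after their values were seen. Some genes that this rule names are not reported here. Members and lists were chosen with earlier results of these data known. Alternatives covered the pseudocount, filter, scaling, variance model, counts, replicate block and each library left out.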

Additional observations from a re-analysis of the deposited data

Results flagged for a closer look

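No ribosomal protein gene had an exposure effect that differed between the lines past the threshold. A test of the difference itself (A549 minus 293T, limma, adjusted p under 0.05) was passed by 14 of the 229 genes tested in the related lists, 11 higher and 3 lower, against 5.51% higher and 7.03% lower of all genes tested. They were 2 regulators of TOP mRNAs, 6 biogenesis factors, 2 genes of RNA polymerase I and 5S transcription and 4 of the mitochondrial ribosome. The 8 given here are those among the 4 genes with the smallest adjusted p of their list in the exposure comparison of either line. The regulators of TOP mRNAs were EIF4EBP1 (-0.41, adjusted p 0.012), an inhibitor of cap-dependent initiation, and RPTOR (-0.20, adjusted p 0.035). Biogenesis factors among the 8 were MDN1 (0.29, adjusted p 0.0071), a remodelling ATPase of the pre-60S subunit, and UTP15 (0.26, adjusted p 0.010), a processome component. Those of RNA polymerase I were TAF1D (-0.27, adjusted p 0.034) and POLR1B (0.20, adjusted p 0.050), and the 2 given for the mitochondrial ribosome were MRPS6 (0.28, adjusted p 0.033) and MRPL10 (0.18, adjusted p 0.018).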

How the results depend on the processing

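The counts between the control groups stayed within 1.5 times under every alternative, with a median of -0.29 with quantile normalization, -0.093 with median centring and -0.32 with TPM; the median of all genes moved by 0.10, 0.093 and -0.16 with them. In exposed A549 the number of genes higher was 1 without a filter, without an intensity trend or with each line fitted alone, 0 with quantile normalization or with the sum set without mitochondrially encoded genes, 7 with TPM, 23 with median centring and 6 with limma-voom; 25 and 2 were lower with quantile normalization and without mitochondrially encoded genes. Its median was -0.057, 0.093 and -0.0016 with quantile normalization, median centring and that sum, and the ratio of the share was 0.996 with that sum. By subunit, A549 medians were -0.054 (small) and -0.065 (large) with quantile normalization and -1.8e-05 and -0.0022 with that sum. In 293T the number higher was 14 without a filter, 13 without a trend, 7 with quantile normalization and 18 with that sum. The number lower was 10 with quantile normalization, and 0 with a pseudocount of 0.1, no filter, no trend, median centring, TPM or each line alone. The 293T median was -0.0087 with quantile normalization (-0.010 for the large subunit) and 0.10 with median centring, and its share ratio 1.04 with that sum. RPL13A (-0.0074), RPLP0 (-0.017) and RPS4X (-0.016) changed sign in 293T with quantile normalization. The difference of effects had 8, 2 and 1 genes lower with quantile normalization, that sum and TPM, and a median of -0.0062 with median centring. What the replicate numbers stand for is not stated here. Deviations of same-numbered libraries correlated by -0.15 to 0.29. Differently numbered libraries were not compared, so whether same-numbered libraries share a batch was not tested. With the replicate block, 5 genes were higher in A549, 30 in 293T, and 0 lower in 293T. Leaving out each library in turn gave 0 to 7 higher and 0 to 1 lower in A549 (median 0.014, without control replicate 1, to 0.050), and 11 to 31 higher and 0 to 1 lower in 293T (median 0.062 to 0.077), with 11 without 293T exposed replicate 2, 12 without 293T control replicate 3 and 17 without 293T control replicate 2. It gave 0 to 1 lower for the difference (median -0.058 to -0.019), 19 to 19 higher and 47 to 53 lower between controls (median -0.21 to -0.16), and share ratios of 1.02 to 1.03 in A549 and 1.05 to 1.06 in 293T. Without both exposed replicates 3, chosen after seeing the data, 7 were higher in A549, and 22 were higher and 0 lower in 293T. Over the single-gene results tallied under the alternatives, 1085 stayed on their side of the threshold, 71 lost it, 21 gained it and 3 were labelled as reversed. These 3 do not include every change of sign. On the deposited scale 71 of the 77 genes in 293T and 67 in A549 lay above 0. With quantile normalization the median of the 77 genes lay below 0 in both lines. The share of all genes called under each alternative is not given here, so counts of calls under the alternatives lack that comparison. Depth is limiting for RPL36A, with as few as 12 fragments in a library.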
